A study of Mus musculus with 10 samples.

Results

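The 36 genes described here encode the Fanconi anemia pathway, homologous recombination and the DNA damage checkpoint, and they were picked by name, not by a measured value, from the table of gene expression in Lin- bone marrow cells. All 36 were found among the 55359 genes of the table, and all 36 were among the 18742 genes that were tested, those averaging 0.1 FPKM or more (FPKM are fragments scaled to gene length and library depth). Lin- cells are bone marrow cells from which cells with surface markers of mature blood lineages have been depleted, and they hold stem cells, progenitors and early precursors of all blood lineages. RNA was sequenced from 5 libraries of Dhx9f/f mice (WT) and 5 of Dhx9f/f;MX1 mice (cKO), to ask how loss of DHX9, a helicase that unwinds RNA and DNA-RNA hybrids, alters the transcriptome. Both groups carry the same floxed Dhx9 alleles. The cKO group also carries Cre driven by the interferon-responsive Mx1 promoter, which acts in many blood and non-blood cells once the interferon inducer poly(I:C) is injected. According to the general methods, mice were analyzed a few days after a short course of poly(I:C). The sources used here do not say if the WT mice of these libraries received it, or how old the mice were.

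Some facts of the libraries bear on every value below. Dhx9 itself went against the labels. WT libraries 1 to 5 had 68.96, 72.42, 72.18, 69.55 and 65.43 FPKM of it, whereas libraries cKO 1 to 5 had 130.82, 148.8, 131.25, 156.49 and 131.98. The study itself reports reduced Dhx9 RNA and protein in bone marrow cells of Dhx9f/f;MX1 mice, by qRT-PCR and western blot. A gene-level value does not show which exons were read, so groups carry the names on their labels, and the directions given below depend on those. Xist was at 99.19 to 127.76 FPKM in WT libraries 3, 4 and 5 and at most 0.09 in the others, where Ddx3y was at 19.66 to 38.53, so sex-linked transcripts were unevenly spread over the groups. Of the markers of early progenitors, Kit was at 36.56 to 54.36 FPKM in WT and 18.73 to 31.11 in the libraries labelled cKO, and Cd34 at 20.1 to 28.57 and 1.05 to 6.78. Cd3e, a marker of T cells, stayed at or below 0.6 FPKM in every library, whereas Ltf, a gene of late neutrophil precursors, reached 29.05 in library cKO 1 and at most 3.79 in WT. The depth, read from the spacing of low values, ran from 13788867 to 18586612 fragments. At that depth the 36 genes had roughly 61.4 (Rad51c) to 3580 (Topbp1) fragments per library, so counting error was small for all but the lowest of them.

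The Fanconi anemia pathway removes crosslinks between the strands of DNA. Its core complex, with the ubiquitin ligase subunit FANCL and the conjugating enzyme UBE2T, attaches ubiquitin to the FANCD2-FANCI pair, which brings nucleases to the crosslink through the scaffold SLX4, and the break that results is repaired by homologous recombination, in which BRCA1, PALB2 and BRCA2 act on resected ends. The kinases ATM and ATR, acting on CHK2 and CHK1, halt the cell cycle meanwhile. Blood stem cells depend on this pathway, and people born without it develop bone marrow failure.

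As a group, the 36 genes differed little between the genotypes, and where single genes differed they went both ways. At an adjusted p under 0.05 in limma (two-sided, Benjamini-Hochberg over all genes tested) and a fold change of at least 2, 0 of the 36 were called higher and 0 lower, where 4.6% and 16.8% of all genes tested were. On adjusted p alone, 4 were higher in the libraries labelled cKO (Blm, Fance, Nbn and Rad51ap1), against a background of 16.7%, and 6 were lower (Brip1, Rad54b, Rad54l, Chek2, Atrip and Fancl), against 28.3%. The balance depended on how libraries were scaled, as median-ratio scaling gave 7 higher and 4 lower, and quantile normalization, which moved the median of all genes tested from -0.11 to 0.10, gave 14 higher and 3 lower. Of the 18742 genes tested, 3763 were higher and 4891 lower with median-ratio scaling, and 4703 and 3928 with quantile normalization. "Rose" and "fell" are used below for the 10 genes named above and for other genes past the adjusted p. The share of the 36 past it was 27.8%, and it was 52.2% among all genes tested that average 1 FPKM or more, as all 36 do. Every library labelled cKO lay above every WT library for 2 of the 36 genes (Blm and Fance) and below for 5 (Brip1, Rad54b, Rad54l, Chek2 and Fancl), where 10.6% and 21.6% of all genes tested did. Blm, Fance, Brip1 and Rad54l passed the adjusted p under all 21 other settings tried, the fits with 1 library left out included, although the change of Brip1 shrank to -0.32 after quantile normalization. The other 6 did not, and Atrip and Fancl were lost in 12 and 8 of the settings.

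The sizes were small. The log2 fold changes of the 36 genes, on the scale of log2(FPKM + 0.1) and as cKO minus WT, ran from -0.59 (Brip1) to 0.86 (Blm) with a median of 0.04, and 20 were above and 16 below 0. Their median absolute change was 0.22, against 0.48 for all genes tested and 0.38 for those averaging 1 FPKM or more. All 36 lay within a change of 1 in absolute size, as did 74.0% of all genes tested. Averaged over the 36 genes, the log2 level was 3.06 to 3.20 in the WT libraries and 3.08 to 3.23 in those labelled cKO, so the groups overlapped in the level of the list as a whole. A library holds a mixture of cells, and fewer cells of a type cannot be told apart from less RNA per cell.

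**Figure D1:**
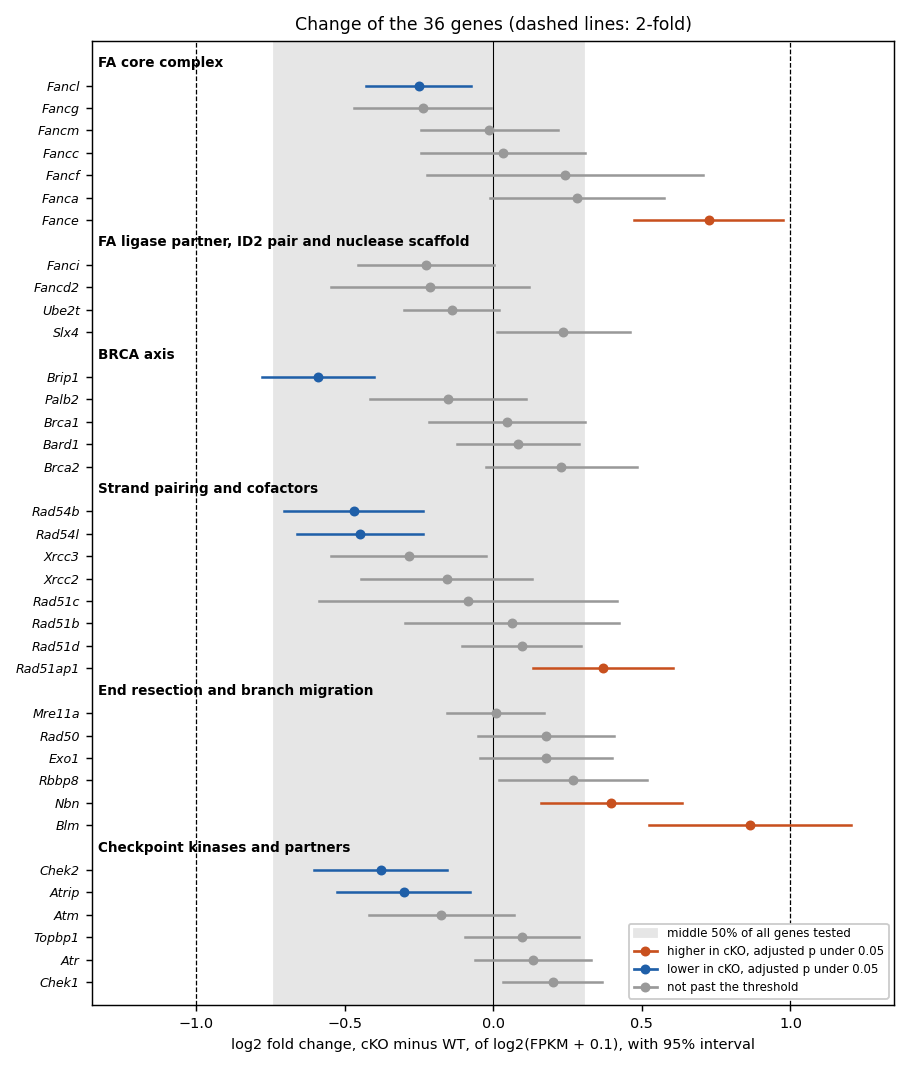
Log2 fold change (cKO minus WT) of each of the 36 genes with its 95% interval, grouped by role, over a gray band that holds the middle 50% of all genes tested. All 36 points lie between the dashed lines at a 2-fold change, 4 are past adjusted p on the right and 6 on the left.

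Those small changes stood beside large ones in lineage markers. The summed level of 24 erythroid markers was 2222.5 to 3891.6 FPKM in WT and 5681.7 to 9269.6 in the libraries labelled cKO, and that of 16 monocyte and dendritic cell markers was 1118.9 to 1905.5 and 48.2 to 378.1. The sum of 44 S-phase genes overlapped between the groups, at 1889.5 to 2582.2 FPKM in WT and 2234.8 to 2705.1 in those labelled cKO, highest in library cKO 1. Library cKO 1 also stood apart in the 36 genes, being the highest of the 5 libraries with its label in 20 of them and the lowest in 11. Without it, 16 of the 36 passed the adjusted p in place of 10, with 6 higher and 10 lower, and the 6 added were Chek1, Rad50, Fancd2, Fanci, Fancg and Xrcc3. More of all genes tested passed as well. Without library cKO 1, 3591 of 18702 were higher and 5753 lower, against 3138 and 5300 of 18742 with it. The gain was thus not confined to the 36 genes, but as a share of the genes it was larger among them. Whether the gain of the 36 genes differs from that of all genes was not tested. What part lineage makeup, the cell cycle or library cKO 1 had in the changes of single genes was not tested.

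**Figure D2:**
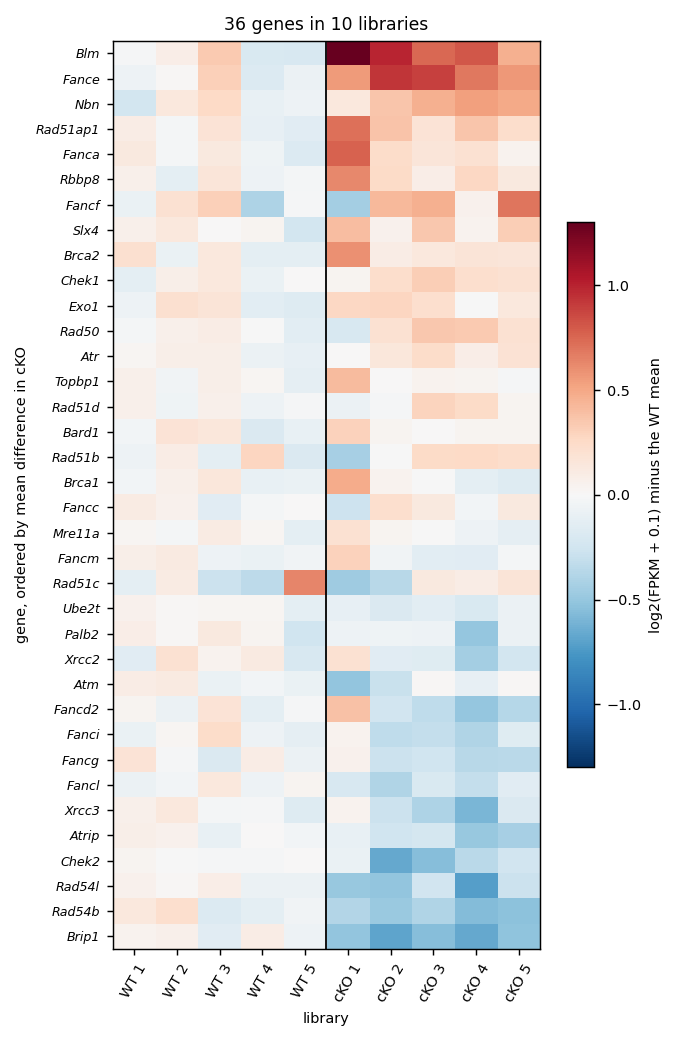
Log2(FPKM + 0.1) of each of the 36 genes in the 10 libraries, as the difference from the mean of the 5 WT libraries, with red above and blue below that mean. Blm and Fance at the top are red, and Brip1, Rad54b and Rad54l at the bottom blue, in all 5 libraries labelled cKO, while column cKO 1 departs from its 4 neighbors in Fanca, Brca1, Brca2 and Fancd2.

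The promoters shown are those of the 2 largest rises and of the largest fall, chosen for the size of the change. All 3 hold the CCAAT box, which among 3 elements searched was the most frequent in the promoters of these genes. The sequences are from the RefSeq promoter table (build GRCm38.p6), which had 28 of the 36 genes with 31 distinct promoters, and each was found by exact match in GRCm39, whose coordinates are given. Shown is the stretch before the RefSeq start on the strand of the gene, ended before the first base in it that GENCODE annotates as an untranslated exon of the gene. For Brip1 the stretch lies inside the extent of the gene, because GENCODE starts the gene 573 bp before RefSeq does. Capitals mark CCAAT or its complement ATTGG. The stretches are Blm at chr7:80184900-80184996 (minus strand), Fance at chr17:28532254-28532487 (plus strand) and Brip1 at chr11:86092044-86092269 (minus strand).
Blm: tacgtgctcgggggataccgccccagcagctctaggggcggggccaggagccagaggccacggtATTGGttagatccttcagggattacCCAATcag
Fance: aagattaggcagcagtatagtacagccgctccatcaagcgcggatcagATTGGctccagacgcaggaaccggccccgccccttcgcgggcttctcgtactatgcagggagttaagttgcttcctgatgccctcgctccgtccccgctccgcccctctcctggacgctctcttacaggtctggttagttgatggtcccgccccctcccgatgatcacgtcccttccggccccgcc
Brip1: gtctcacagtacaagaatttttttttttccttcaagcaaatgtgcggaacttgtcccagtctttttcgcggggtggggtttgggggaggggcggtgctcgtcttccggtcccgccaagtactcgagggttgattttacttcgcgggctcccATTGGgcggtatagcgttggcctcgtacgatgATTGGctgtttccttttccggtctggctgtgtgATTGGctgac
Blm and Fance, which rose, hold 2 and 1 of these boxes here, and Brip1, which fell, holds 3. Of the 18742 genes tested, 10970 had a promoter in that table. In the window from 250 bases before to 50 after the start, CCAAT was present on either strand in 21 of the 31 promoters (67.7%). The share was 37.7% for promoters of the genes tested and 37.4% for the whole table. An E2F sequence (TTTCCCGC, TTTGGCGC or TTTCGCGC on either strand), of the kind bound by factors that turn genes on for S phase, was present in 7 of the 31 (22.6%), those of Bard1, Brca2, Chek2, Fancg, Rad51c and Topbp1, against 3.34% and 1.86%. The CHR sequence TTTGAA, found in many genes of mitosis, was present in 2 (6.45%), against 13% and 17.8%. Of the 6 genes with an E2F sequence, Chek2 was the only one among the 10 past the adjusted p. Nbn and Rad54b, also among those 10, were not among the 28 genes with a promoter and so were not searched. A match of letters is not evidence of binding.

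Of the 7 core complex genes, Fance rose, Fancl fell and 5 did not pass. Fance (ENSMUSG00000007570, chromosome 17 from 28532488 to 28545546 of GRCm39) encodes the subunit that contacts FANCD2. WT libraries 1 to 5 had 7.26, 7.67, 9.46, 6.7 and 7.23 FPKM, and libraries cKO 1 to 5 had 11.25, 14.63, 14.15, 12.34 and 11.26. The lowest library labelled cKO lay above the highest WT library, and library cKO 1 was the lowest of its label. The mean went from 7.66 ± 1.06 to 12.7 ± 1.59 FPKM (SD, n = 5 each). In limma its log2 fold change was 0.73 with a standard error of 0.114 (adjusted p = 0.000528), and the exact permutation test gave p = 0.00794, the smallest that 5 against 5 allow. Fance shares 104 bp of exon with an antisense transcript, Gm49886, which was at 0.72 FPKM in WT and 1.87 in the libraries labelled cKO, and whether the counting used strand is not given in the sources used here.

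Fancl (ENSMUSG00000004018, chromosome 11 from 26336135 to 26421878), the ligase subunit of the complex, was at 7.74, 7.98, 9.03, 7.81 and 8.38 FPKM in WT and at 7.07, 6.21, 7.1, 6.57 and 7.36 in those labelled cKO. The groups did not overlap but nearly touched. Its log2 fold change, -0.25 with a standard error of 0.0800 (adjusted p = 0.0245, limma), was the smallest among the 10 genes that passed. Fancl overlaps 1511 bp of exon of Vrk2 on the other strand, which had a log2 fold change of -0.01.

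The other core subunits did not pass, although the changes of Fanca, Fancf and Fancg were about as large as that of Fancl. Fanca, a large scaffold subunit, had a log2 fold change of 0.28 (adjusted p = 0.107, limma), and its highest value, 14.96 FPKM, was in library cKO 1, where the other libraries of that label were at 8.98 to 10.34. Fancf, an adaptor, had 0.24 (adjusted p = 0.382) and Fancg, which binds FANCA, -0.24 (adjusted p = 0.0867). Fancm, a DNA translocase that anchors the complex on chromatin, was among the 3 least changed genes of the 36, at 5.71, 5.88, 5.15, 5.07 and 5.24 FPKM in WT and 6.65, 5.22, 4.91, 4.86 and 5.29 in those labelled cKO (log2 fold change -0.01). The same was true of Fancc, another core subunit, at 3.05, 2.94, 2.55, 2.77 and 2.84 FPKM against 2.32, 3.31, 3.1, 2.75 and 3.1 (0.03). The intervals of these changes, -0.25 to 0.22 for Fancm and -0.24 to 0.31 for Fancc, leave room for changes of the size seen for Fancl. Their signs turned under some scalings, Fancm to 0.27 with quantile normalization and Fancc to -0.01 with an equal sum of FPKM per library.

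Downstream of the core complex, none of Ube2t, Fancd2, Fanci and Slx4 passed. Fancd2 and Fanci, the pair that receives ubiquitin, had log2 fold changes of -0.21 (adjusted p = 0.281) and -0.23 (adjusted p = 0.0969). Fancd2 was at 10.36 to 12.89 FPKM in WT and at 7.99 to 9.54 in libraries cKO 2 to 5, below every WT library, while library cKO 1 was at 14.86, above every WT library. The ratio of Fancd2 to Fanci within a library was 1.12 ± 0.0804 in WT and 1.14 ± 0.177 in those labelled cKO (SD, n = 5 each), where library cKO 1 lay above the WT range and libraries cKO 4 and 5 below it. Ube2t had a log2 fold change of -0.14 (adjusted p = 0.139), and Slx4 of 0.24 (adjusted p = 0.0814).

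In the BRCA axis, Brip1 fell and Brca1, Bard1, Brca2 and Palb2 did not pass. Brip1 (ENSMUSG00000034329, chromosome 11 from 85948957 to 86092592) encodes FANCJ, a helicase that binds BRCA1 and unwinds G-quadruplex DNA. It was at 7.14, 7.24, 6.22, 7.39 and 6.59 FPKM in WT and at 4.81, 4.25, 4.66, 4.3 and 4.77 in those labelled cKO. Every library labelled cKO was below every WT library, and library cKO 1 was not set apart from the other 4. The mean went from 6.92 ± 0.493 to 4.56 ± 0.265 FPKM (SD, n = 5 each), 0.664 times the WT level, and the log2 fold change was -0.59 with a standard error of 0.0858 (adjusted p = 0.000350, limma). Its antisense partner Brip1os, which shares 286 bp of exon, also fell (log2 fold change -0.43, adjusted p = 0.000685, limma), and without strand the reads of this shared part cannot be told apart.

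Brca1 and Bard1, which form a ubiquitin ligase together, had log2 fold changes of 0.05 (adjusted p = 0.783) and 0.08. Brca1 was at 13.08 to 15.52 FPKM in WT and at 12.38 to 14.41 in libraries cKO 2 to 5, with library cKO 1 at 19.6, and its change was -0.06 without that library. Brca2, which acts with PALB2 on resected ends, had 0.23 (adjusted p = 0.128) and Palb2, which bridges BRCA1 and BRCA2, -0.15 (adjusted p = 0.326). The 95% intervals of these 4 changes lay between -0.42 and 0.48, so changes of that size remain possible.

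Of the 8 genes of strand pairing and its cofactors, the translocases Rad54b and Rad54l fell, Rad51ap1 rose and 5 did not pass. RAD54L and RAD54B remodel DNA during the pairing of homologous strands. Rad54b (ENSMUSG00000078773, chromosome 4 from 11558862 to 11615814) was at 5.65, 5.97, 4.52, 4.69 and 4.96 FPKM in WT and at 3.91, 3.65, 3.89, 3.43 and 3.51 in the libraries labelled cKO. Rad54l (ENSMUSG00000028702, chromosome 4 from 115948561 to 115980894) was at 13.69, 13.3, 14.06, 12.48 and 12.55 FPKM against 9.36, 9.19, 11.13, 8.01 and 10.85. For both genes the groups did not overlap. Rad54b went from 5.16 ± 0.626 to 3.68 ± 0.218 FPKM (log2 fold change -0.47, standard error 0.106, adjusted p = 0.00422) and Rad54l from 13.2 ± 0.695 to 9.71 ± 1.28 FPKM (-0.45, standard error 0.0956, adjusted p = 0.00305), with SD over n = 5 each and limma as the test. The ratio of Rad54l to Rad54b was 2.59 ± 0.331 in WT and 2.64 ± 0.324 in those labelled cKO. After quantile normalization Rad54b was no longer past the adjusted p, with a change of -0.13, and Rad54l was, with -0.33. Rad54b shares 4358 bp of exon with Fsbp on its own strand (log2 fold change -0.82). Fsbp was low, at 0.52 FPKM in WT and 0.25 in the libraries labelled cKO. Rad54b also shares 1058 bp with the antisense transcript Gm11832, at 6.14 and 3.35 FPKM (-0.85, adjusted p = 0.0248, limma). Rad54l shares 2354 bp with Lrrc41 on the other strand, which rose (0.49). What part shared reads had in these values was not tested.

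Rad51ap1 went from 16.6 ± 1.60 to 21.6 ± 3.32 FPKM (SD, n = 5 each). Its log2 fold change was 0.37 (SE 0.107, adjusted p = 0.0157, limma), and the groups overlapped, with library cKO 1 highest at 27.13. Of the paralog genes that act in recombination, Rad51b had a log2 fold change of 0.06, Rad51c -0.09, Rad51d 0.10, Xrcc2 -0.16 and Xrcc3 -0.28, with adjusted p between 0.0720 (Xrcc3) and 0.787. Rad51c was the lowest of the 36 genes, with a mean of 1.53 FPKM and WT library 5 at 2.44 against 1.19 to 1.66 in the other 4, and its interval, -0.59 to 0.42, was the widest.

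The 6 of the 36 genes grouped here under end resection and branch migration all had changes above 0, with a median of 0.22. Of these 6, 4 did not pass, and the change of Mre11a turned to -0.03 with an equal sum of FPKM per library. Dna2, a resection gene outside the 36, fell (log2 fold change -0.26, adjusted p = 0.0181, limma), and was looked up after these values were seen. Blm and Nbn rose. Blm (ENSMUSG00000030528, chromosome 7 from 80104481 to 80184899), the gene with the largest change of the 36, encodes the RecQ helicase of Bloom syndrome, which unwinds joint molecules and stalled forks and takes part in resection. It was at 16.43, 17.62, 21.05, 14.54 and 14.39 FPKM in WT and at 41.25, 33.23, 27.93, 29.23 and 23.04 in the libraries labelled cKO. The highest was library cKO 1, and the lowest of that label was still above the highest WT library. The mean went from 16.8 ± 2.73 to 30.9 ± 6.82 FPKM (SD, n = 5 each), 1.82 times the WT level, and the log2 fold change was 0.86 (SE 0.154, 95% interval 0.52 to 1.20, adjusted p = 0.00110, limma). Under the other settings its change lay between 0.75 and 0.96.

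The MRE11-RAD50-NBS1 complex binds broken ends and activates ATM, and of its 3 genes Nbn rose while Rad50 and Mre11a did not pass. Whether their changes differ from each other was not tested. Nbn, for NBS1, was at 18.32, 23.81, 25.89, 20.23 and 20.58 FPKM in WT and at 23.7, 27.72, 29.89, 31.2 and 30.5 in those labelled cKO, and its log2 fold change was 0.40 with a standard error of 0.108 (adjusted p = 0.0115, limma). Library cKO 1 lay within the WT range and the other 4 above it. Rad50 was at 24.7, 26.37, 26.86, 24.96 and 22.83 FPKM against 21.74, 28.87, 31.94, 31.86 and 28.82, with a change of 0.18 that did not pass (adjusted p = 0.190). Library cKO 1 was below every WT library here, and without it Rad50 passed. Mre11a, the nuclease, had the smallest absolute change of the 36 (0.01, interval -0.16 to 0.17), at 16.95, 16.42, 17.92, 16.97 and 15.24 FPKM in WT and 19.08, 17.13, 16.57, 15.88 and 15.4 in those labelled cKO. The other resection factors, Rbbp8, which encodes CtIP, and the exonuclease Exo1, had changes of 0.27 (adjusted p = 0.0742) and 0.18 (adjusted p = 0.176).

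**Figure D3:**
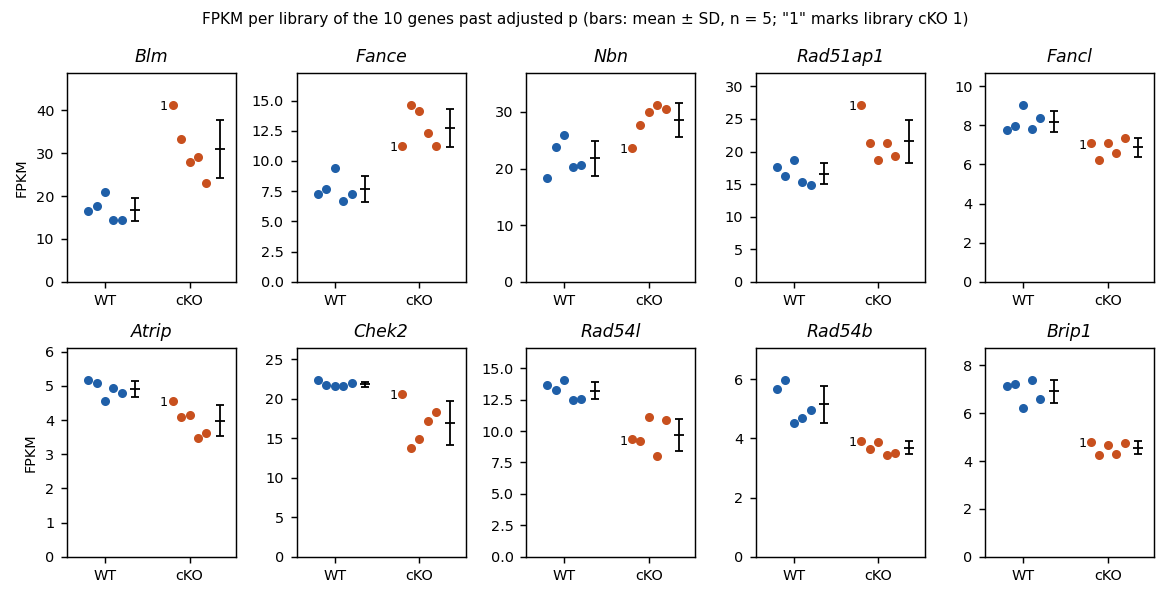
FPKM in each library of the 10 genes past the adjusted p, with the mean and SD of 5 libraries as a bar and library cKO 1 marked. The groups do not overlap for Blm, Fance, Fancl, Chek2, Rad54l, Rad54b and Brip1, and they overlap for Nbn, Rad51ap1 and Atrip.

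Of the 6 checkpoint genes, Chek2 and Atrip fell and 0 rose. Chek2 (ENSMUSG00000029521, chromosome 5 from 110987826 to 111022011), for the kinase CHK2 that ATM activates, was at 22.4, 21.8, 21.6, 21.64 and 21.96 FPKM in WT. It was at 20.66, 13.76, 14.89, 17.18 and 18.34 in the libraries labelled cKO. WT libraries lay within a narrow band, and the libraries labelled cKO were spread below it, with library cKO 1 nearest to it. The mean went from 21.9 ± 0.324 to 17.0 ± 2.75 FPKM (SD, n = 5 each). In limma its log2 fold change was -0.38 with a standard error of 0.101 (adjusted p = 0.0104). Among the libraries with Xist at or below 1 FPKM alone, 2 of WT and 5 labelled cKO, Chek2 was no longer past the adjusted p. Its change there was -0.39. Neither were Nbn (0.44), Rad51ap1 (0.34), Atrip (-0.37) and Fancl (-0.20) past it. Fewer of all genes tested passed there too, 1640 of 18588 higher and 3075 lower, against 3138 and 5300 of 18742 with all libraries.

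Atrip, for the partner that brings ATR to single-stranded DNA, went from 4.91 ± 0.239 to 3.98 ± 0.444 FPKM (SD, n = 5 each, log2 fold change -0.30, adjusted p = 0.0309, limma), with library cKO 1 at 4.57, the value of the lowest WT library. Atrip shares 1147 bp of exon with Trex1 on its own strand, so its reads may be split with that gene. The kinases themselves did not pass, with changes of -0.18 for Atm (adjusted p = 0.223), 0.13 for Atr (adjusted p = 0.245) and 0.20 for Chek1 (adjusted p = 0.0507), which encodes CHK1, the target of ATR. Chek1 lay just beyond the threshold and passed in 7 of the 21 other settings. Topbp1, the activator of ATR, had the highest level of the 36, at 37.17, 34.36, 37.37, 36.26 and 32.66 FPKM in WT and 47.41, 35.56, 36.75, 36.32 and 35.11 in those labelled cKO (log2 fold change 0.10, adjusted p = 0.400). Apart from library cKO 1, its values lay within the WT range.

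The ratio of FPKM of 13 pairs of genes, whose products bind each other, share a complex or have related roles, was taken within each library. The pairs were chosen with the values of single genes known, so the ratios are given with no test. Brip1 to Brca1 was 0.401 to 0.565 in WT and 0.245 to 0.385 in the libraries labelled cKO, with no overlap. Palb2 to Brca2 was 0.568 to 0.699 and 0.388 to 0.562, also with no overlap, although neither gene passed on its own. Blm to Topbp1, which binds BLM, was 0.401 to 0.563 and 0.656 to 0.934. These 3 of the 13 pairs were the ones whose groups were apart, and Brip1 and Blm were apart on their own. No such share was taken over pairs of other genes. Of all single genes tested, the groups were apart upward for 10.6% and downward for 21.6%.

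Between the kinases, Chek1 to Chek2 was 0.650 ± 0.0556 in WT and 0.990 ± 0.212 in those labelled cKO (SD, n = 5 each), with library cKO 1 at 0.705 inside the WT range and the others at 0.889 to 1.21. Atr to Atrip showed the same layout, at 0.941 ± 0.0748 and 1.29 ± 0.178, with library cKO 1 at 1.01. Nbn to Mre11a was 1.08 to 1.45 in WT and 1.24 to 1.98 in those labelled cKO. For Fancd2 to Fanci, Brca1 to Bard1, Rad54l to Rad54b and Ube2t to Fancl, the mean log2 ratio differed by 0.02, -0.04, 0.03 and 0.11 between the groups, and all 4 overlapped.

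**Figure D4:**
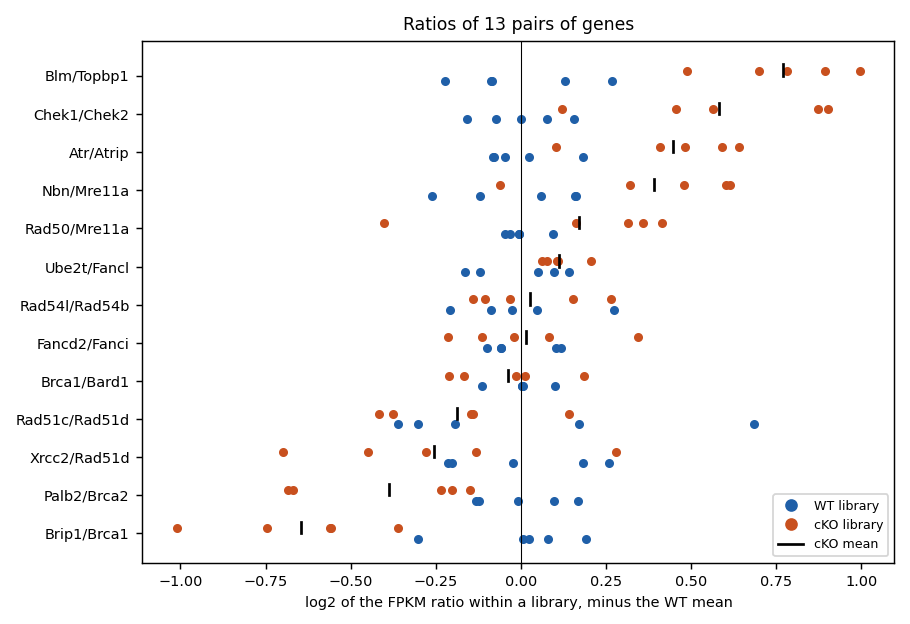
Log2 ratio of FPKM of 13 pairs of genes within each library, as the difference from the WT mean, with WT libraries in blue, libraries labelled cKO in orange and their mean as a bar. Blm to Topbp1 lies to the right of all WT libraries and Brip1 to Brca1 and Palb2 to Brca2 to the left, while for Fancd2 to Fanci and Rad54l to Rad54b the cKO mean lies near 0, with cKO libraries of Fancd2 to Fanci on both sides of the WT range.

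The other genes of the same pathways, a list of 57 drawn up from general knowledge, were measured the same way. Of these, 15 rose, 10 fell and 32 did not pass on adjusted p alone, with a median log2 fold change of 0.05, and 1 was called higher and 1 lower with the fold change limit. The gene called higher was Zswim7, which encodes a partner of SWSAP1 in recombination and went from 6.98 ± 1.37 to 17.7 ± 4.21 FPKM (log2 fold change 1.32, adjusted p = 0.000308). Other rises were those of the helicase genes Recql4 (0.53), Helq (0.50) and Recql (0.43).

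The gene called lower was Rmi2, for a subunit of the dissolvasome in which BLM acts with TOP3A and RMI1. It went from 3.57 ± 0.209 to 1.06 ± 0.356 FPKM (log2 fold change -1.72, adjusted p = 0.000162), while Blm rose. Top3a fell (-0.38, adjusted p = 0.0410) and Rmi1 had a change of 0.09 (adjusted p = 0.481), both looked up after the values of Rmi2 and Blm were seen. H2ax, for the histone variant that is phosphorylated around breaks, fell from 133 ± 9.08 to 77.4 ± 13.9 FPKM (-0.80, adjusted p = 0.000231). Mus81, for a nuclease that SLX4 holds, fell from 4.59 ± 0.697 to 2.93 ± 1.07 FPKM (-0.70, adjusted p = 0.0372) and Slx1b, for another, from 3.63 ± 0.103 to 2.48 ± 0.423 FPKM (-0.54, adjusted p = 0.00524). Slx4 itself, at 8.62 ± 0.808 and 10.2 ± 1.17 FPKM, had a change of the opposite sign that did not pass. SDs are over n = 5 libraries each, and the adjusted p are from limma.

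Set beside the other repair pathways, the 36 genes had a smaller share past the adjusted p (27.8%) than most. The share was 61.1% for nucleotide excision repair, where 9 of 18 rose and 2 fell, and 43.8% for base excision repair. It was also larger for translesion synthesis and end joining, and alike for mismatch repair (28.6%). The 57 other genes of the same pathways had 43.9%, and all genes tested averaging 1 FPKM or more had 52.2%. The difference between lists was not tested. In nucleotide excision repair, Xpc, for the damage sensor, fell (log2 fold change -1.62, adjusted p = 0.000207), and Gtf2h1, for a subunit of TFIIH, rose (0.92, adjusted p = 0.000377). In base excision repair, 4 of 16 rose and 3 fell, with Neil1 at -1.25 (adjusted p = 0.000709). In translesion synthesis 4 of 10 rose and 1 fell, in mismatch repair 2 of 7 rose and 0 fell, and in end joining 2 of 10 rose and 2 fell. The medians of these lists were 0.24 for nucleotide excision repair, 0.11 for base excision repair, 0.24 for translesion synthesis, 0.09 for mismatch repair and -0.19 for end joining, against -0.11 for all genes tested.

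Cell cycle and p53 lists were measured beside the 36 genes. The background over all genes tested was 16.7% that rose and 28.3% that fell, with a median of -0.11. With the fold change limit it was 4.6% and 16.8%. Of 44 S-phase genes, 9 rose and 2 fell (median 0.15), and of 52 G2/M genes, 6 rose and 17 fell (median -0.11). Of 26 p53 targets, 19 rose and 4 fell (median 0.85), 12 and 2 of them with the fold change limit. Cdkn1a, the cell cycle inhibitor, was at 3.65, 2.95, 1.13, 2.9 and 2.54 FPKM in WT and at 5.57, 38.64, 26.71, 42.6 and 29.54 in those labelled cKO, with library cKO 1 far below the other 4. Lineage markers had the medians farthest from 0. The median was 1.01 for 24 erythroid markers, with 22 that rose and 0 that fell, and it was -4.08 for 16 monocyte and dendritic cell markers, all of which fell. It was -2.23 for 16 neutrophil markers (9 fell, 0 rose), -1.87 for 12 B lymphoid markers (9 fell, 0 rose), -1.18 for 16 T and NK cell markers (8 fell, 0 rose) and -2.29 for 12 megakaryocyte markers, which all fell. It was -1.48 for 10 mast cell and basophil markers (7 fell, 1 rose) and -1.94 for 13 stem and early progenitor markers (11 fell, 1 rose).

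**Figure D5:**
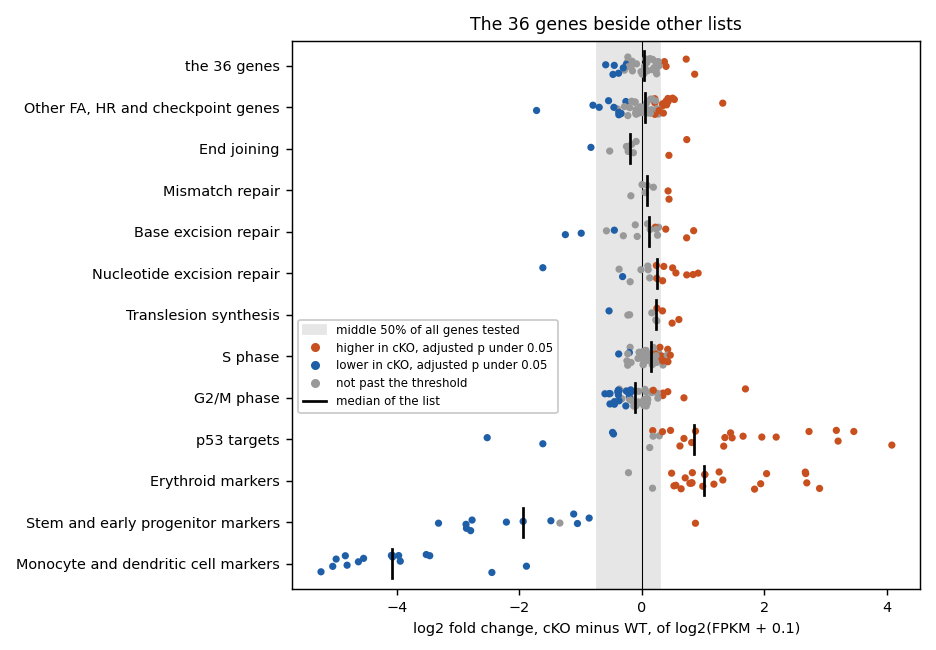
Log2 fold change (cKO minus WT) of each gene of 13 lists, with the list median as a bar and the middle 50% of all genes tested as a gray band. The 36 genes and the other repair and cell cycle lists gather around 0, while p53 targets and erythroid markers reach to the right and stem cell and monocyte markers to the left.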

How the data were processed

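RNA-seq of Lin- bone marrow cells from 5 WT and 5 cKO libraries was analyzed as deposited. The authors removed adapters, mapped reads to GRCm39 with HISAT2 2.0.1 and deposited 1 FPKM value per gene and library. The submitters' processing notes also name cutadapt 1.9.1 and HTSeq 0.6.1, with no role given; the annotation, the gene lengths behind the FPKM and any use of strand are not given in the sources used here. All 10 columns were matched to samples by name. Since FPKM are no counts, a count test such as DESeq2, which the authors used, could not serve here.

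The 18742 genes averaging 0.1 FPKM or more entered a two-sided limma 3.58.1 fit (R 4.3.3; lmFit, eBayes with trend) of log2(FPKM + 0.1). Their p were adjusted together by the Benjamini-Hochberg method, and genes were called at adjusted p under 0.05, with or without a fold change of at least 2. Such fold changes understate the change of low genes. Single genes were also tested by exact permutation in Python, and steps were tested on simulated data. The p-values measure the spread between these libraries, which the labels number without saying that each is 1 mouse. Depth came from low values of genes with 1 transcript, of which 96.1% to 96.4% were whole within 0.2 of a fragment (40% would be by chance). Symbols (54749 of 55359), positions and exon overlaps are from GENCODE on GRCm39.

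The 36 genes, the other lists, from general knowledge, and the tests were chosen with earlier results of these data known. Values per library are given for genes of the 36 past adjusted p with groups apart, for the 3 highest and for the 3 least changed. Of the other pathway genes the 4 largest changes each way are named, with Top3a, Rmi1 and Dna2 besides, and of each further list at most 2. Promoters shown are those of the 2 largest rises and 2 largest falls, where the table held them. Alternatives were pseudocounts of 0.01 and 1, a minimum mean of 1 FPKM or none, 3 other scalings, eBayes without trend, a replicate block, a covariate for Xist above 1 FPKM, libraries at or below it alone, each library left out, and a promoter window of 250 bases before the start. Some genes are not reported here.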

Additional observations from a re-analysis of the deposited data

Results flagged for a closer look

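Each of the 36 genes was examined in each group of 5 libraries, 72 groups in all, by Dixon's test for a library set apart from the rest of its group, which chance alone gives in about 1 of 20 groups. In 10 of the 72 a library stood apart, and in 8 of these it was library cKO 1, above the other 4 each time. Fanca was at 14.96 FPKM in it (8.98 to 10.34 in the others), Fancg at 9.23 (6.9 to 7.4), Fancm at 6.65 (4.86 to 5.29) and Fancd2 at 14.86 (7.99 to 9.54). Brca1 was at 19.6 (12.38 to 14.41), Bard1 at 13.8 (11.22 to 11.49), Brca2 at 13.01 (9.18 to 9.7) and Topbp1 at 47.41 (35.11 to 36.75). The remaining ones were Ube2t at 6.59 in library WT 5 (7.28 to 7.52) and Palb2 at 3.76 in library cKO 4 (5.08 to 5.16). Genes of a shared pathway are not independent, so these are not 10 separate events. Library cKO 1 also had the highest sum of S-phase genes (2705.1 FPKM) and of G2/M genes (3358.9 FPKM, where the 10 libraries began at 2631.5), the lowest depth (13788867 fragments) and the least Cdkn1a of its label (5.57 FPKM). What part these had was not tested.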

How the results depend on the processing

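The finding that 0 of the 36 genes passed the fold change limit held under all 21 alternatives, in which no change exceeded 0.96. On adjusted p alone (4 higher, 6 lower), median-ratio scaling gave 7 higher, and quantile normalization 14 higher and 3 lower. The Xist covariate gave 3 lower, and the libraries with low Xist alone 2 higher and 3 lower. Fewer of all genes tested passed in these Xist settings as well. From 3138 higher and 5300 lower, the counts fell to 2035 and 4021 with the covariate. With the low-Xist libraries alone they were 1640 and 3075. Median-ratio scaling moved the median of all genes tested to -0.04, and with quantile normalization and median-ratio scaling the median of the 36 genes went from 0.04 to 0.17 and 0.11. In both, it lay above the median of all genes. With each library left out, 4 to 6 were higher and 4 to 10 lower, the highest of both without library cKO 1, and the median was 0.01 to 0.05. Among all genes tested, both counts were also highest without library cKO 1, at 3591 higher and 5753 lower. With the replicate number as a block, 5 were higher and 5 lower, with 9 of 10 genes shared, Chek1 gained and Atrip lost. Same-numbered libraries deviated together with correlations from -0.08 to 0.19, and not every library correlated best with its own number, so the numbers do not pair the samples.

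Signs turned for 9 of the 36 genes. With quantile normalization they became 0.418 for Rad51c, 0.0313 for Atrip, 0.0759 for Ube2t, 0.0998 for Xrcc2, 0.144 for Palb2 and 0.273 for Fancm, and with median-ratio scaling 0.0566 for Fancm. An equal sum per library gave -0.00566 for Fancc and -0.0331 for Mre11a, and the Xist covariate and the low-Xist libraries alone each gave -0.0473 for Fancc. With 1 library left out, Fancm ran from -0.0904 to 0.0208, Fancc from -0.0129 to 0.111, Mre11a from -0.0388 to 0.0380, Rad51c from -0.172 to 0.0728 and Brca1 from -0.0643 to 0.1003. The cause was not tested. Shares of promoter motifs in the shorter window were 64.5% for CCAAT, 16.1% for E2F and 3.23% for CHR. Of the values for single genes, 685 kept direction and side of the threshold, 23 passed it, 25 lost it and 23 turned in sign. At this depth Rad51c (61.4 fragments at the least) is the least precisely measured.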
